A study of Mus musculus with 4 samples.

Results

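The genes described here are 36 genes of fatty acid uptake and mitochondrial oxidation, taken by symbol from the 32285 genes of a spatial transcriptomics series on mouse hearts after myocardial infarction (MI). They were named by function, with earlier results of these data known. The series, as used here, held 4 Visium sections, each a single fresh-frozen section from the heart of 1 mouse, taken on day 1, 4, 7 or 14 after the left anterior descending artery was tied permanently. All mice were adult Hsd:ICR (CD1) females, 12 weeks old at the labels' count, with no transgene or drug named in the labels, and all 4 had been ligated, so no uninjured heart stood among the groups. The labels give day 1 for the earliest section, where part of the study's own text names a later day. Visium captures polyadenylated RNA on a printed array, and each spot of the array holds several cells of different kinds. A unique molecular identifier (UMI) marks 1 captured transcript, and every value below is a count of UMIs or a ratio of such counts.

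The heart draws most of its energy from fatty acids. Lipoprotein lipase (Lpl) frees them from circulating triglyceride, Cd36 and fatty acid transport protein 1 (Slc27a1) bring them across the membrane, and heart fatty acid binding protein (Fabp3) carries them through the cytosol. Acyl-CoA synthetase (Acsl1) activates them, the carnitine shuttle (Cpt1b, Slc25a20, Cpt2) moves them into mitochondria, and the dehydrogenases, hydratases and thiolases of beta-oxidation shorten them step by step, handing electrons to the respiratory chain through the electron transfer flavoproteins. The injured heart is known to lower its use of fatty acids and to raise its use of glucose.

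Several genes of this pathway are known targets of nuclear receptors such as PPARalpha and ERRalpha, whose DNA sites are built on the hexamer AGGTCA. The 250 bases before the start of transcription (RefSeq, GRCm38.p6) were found for 28 of the 36 genes, and AGGTCA, read on both strands, was in 5 of them (17.9%), against 15.8% of 27025 genes. The members with it were Cd36, Acadvl, Acadm, Echs1 and Ucp3. The longer form AAGGTCA, which contains it, was in 1 member (3.57%), against 4.7% of genes, and a direct repeat of the hexamer with a 1-base gap was in 0 of 28, against 0.0407% of genes. The shares of the members were close to those of all genes. Of these 5 members, 2 are shown because both encode acyl-CoA dehydrogenases whose counts are given below. The sequences are those of the medium-chain enzyme at chr3:153944644-153944893 and the very-long-chain enzyme at chr11:70015429-70015678, both on the minus strand and upstream of the gene. Capitals mark the hexamer, which reads as its reverse complement TGACCT in Acadm, 249 bases before the start, and directly in Acadvl, 87 bases before it. A match is a description of these letters and not of a bound site.
Acadm: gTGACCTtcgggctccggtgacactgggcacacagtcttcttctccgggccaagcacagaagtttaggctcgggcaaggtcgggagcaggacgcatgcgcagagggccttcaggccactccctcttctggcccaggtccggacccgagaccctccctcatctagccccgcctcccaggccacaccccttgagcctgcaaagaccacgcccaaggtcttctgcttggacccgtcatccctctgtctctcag
Acadvl: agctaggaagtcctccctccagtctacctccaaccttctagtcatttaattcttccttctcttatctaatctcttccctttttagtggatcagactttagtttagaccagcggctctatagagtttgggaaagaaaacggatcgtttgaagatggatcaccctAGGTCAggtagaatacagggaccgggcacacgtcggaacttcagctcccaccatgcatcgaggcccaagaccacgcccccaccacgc

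The 4 sections held between 10983077 and 17315715 UMIs. Spots with more than 1% hemoglobin UMIs were left out, which kept 7503 of 9102 spots and a median of 5188 to 8799 UMIs a spot. The sections carried heart muscle as labelled: the cardiac myosin genes Myh6 and Myl2 together took 1.91%, 1.68%, 1.96% and 2.19% of UMIs on days 1, 4, 7 and 14. The day 7 section stood apart in holding 118 spots with fast skeletal muscle transcripts, where the other sections held 0, so the tests and the summed values of day 7 were repeated without those spots. The sections shared 1332 of 3178 spot barcodes, which name positions on the slide and not cells. Since each day had 1 mouse, no difference between days was tested. The p-values below come from fits to 4 bins of spots in each section. They measure the spread of the bins around changes shared by the 4 sections, which are of different days. All 4 bins enter that spread, and not the highest and lowest alone.

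In each section the spots were ranked on their share of Myh6+Myl2 UMIs and cut into 4 bins of equal size, of 419 to 522 spots, and ranked again on 4 stress genes: Ankrd1, Flnc and Xirp2, stretch-responsive proteins of the sarcomere and its junctions, and Nppb, the B-type natriuretic peptide. None of the 6 ranking genes is a member. Levels are given as CPM, the UMIs of a gene per 1000000 UMIs of all genes in the same spots. Counts were also set against the summed UMIs of 8 further sarcomere genes (Tnnt2, Tnni3, Tnnc1, Actc1, Myl3, Mybpc3, Tpm1 and Ttn), called per sarcomere UMI below. Of the 36 members, 33 had at least 1000 UMIs and were tested; Ucp3, Lipe and Ppara, with 306, 563 and 41 UMIs, had fewer.

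Together the 36 genes took 1.89%, 1.60%, 1.66% and 2.12% of all UMIs on days 1, 4, 7 and 14. Fabp3 alone supplied 27.4% of the members' UMIs, Lpl 12.8%, Hadhb 6.61% and Cd36 4.77%, as shares of counts with no adjustment for transcript length. The summed share climbed with the Myh6+Myl2 rank in every section. From the lowest to the highest bin it went 0.967%, 1.68%, 2.31% and 2.53% on day 1, 0.43%, 1.34%, 1.97% and 2.26% on day 4, and 0.525%, 1.48%, 2.03% and 2.13% on day 7. On day 14 it went 1.66%, 2.15%, 2.20% and 2.22%. The highest bin thus held 2.61, 5.27, 4.06 and 1.34 times the share of the lowest on days 1, 4, 7 and 14, with day 14 by far the flattest. Without the skeletal muscle spots the day 7 values were 0.495% and 2.14%, 4.32 times. Myh6+Myl2 itself took 0.773%, 0.271%, 0.2285% and 1.53% of UMIs in the lowest bins, and 2.82%, 2.57%, 2.80% and 2.56% in the highest. The bins compared on day 14 were thus also the most alike in the ranking genes, and the part of this in the result was not tested. The lowest bins of days 7 and 14 had medians of 2826 and 2329.5 UMIs a spot, against 5515 and 8278 in the highest. On days 1 and 4 the medians were 6389 and 6524.5 in the lowest bins, and 5971 and 9221 in the highest. The part of depth in these shares was not tested. Fewer cardiomyocytes in a spot and less RNA per cardiomyocyte cannot be told apart in such spots. A list of 6 fibroblast genes took 0.26%, 4%, 4.23% and 0.948% of UMIs in the lowest bin against 0.103%, 0.146%, 0.159% and 0.101% in the highest, and 7 macrophage genes 0.101%, 0.636%, 0.45% and 0.161% against 0.0334%, 0.0448%, 0.0451% and 0.0292%. For 5 neutrophil genes the values were 0.0399%, 0.007%, 0.00741% and 0.0161% against 0.00172%, 0.000896%, 0.001075% and 0.0004045%. Their part in the result was not tested.

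Set against sarcomere transcripts, the days parted. The lowest bin held 30.0 member UMIs per 100 sarcomere UMIs on day 1 and 31.3 on day 4, against 58.1 and 57.5 in the highest, so the members were scarcer there relative to sarcomere RNA. On day 14 the values were 50.2 and 50.8. On day 7 they were 59.1 and 47.3, in a lowest bin where fast muscle genes took 2.03% of UMIs and whose own sarcomere share was the smallest of the 16 bins. Without the skeletal muscle spots they were 37.1 and 47.4, the other way round. Fast muscle genes still took 0.0376% of UMIs in that lowest bin and 0.0103% in the highest.

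**Figure D1:**
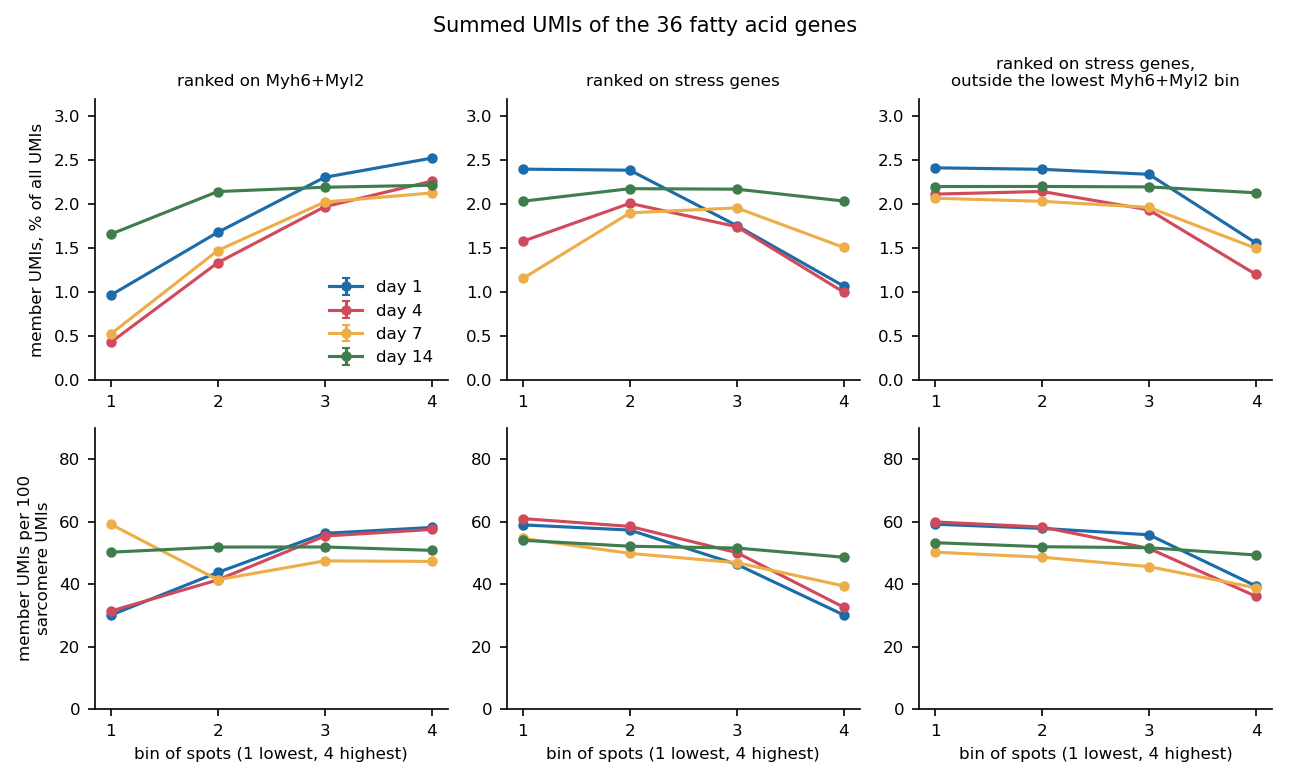
Summed UMIs of the 36 fatty acid genes by bin of spots (1 lowest, 4 highest) on days 1, 4, 7 and 14, as a percent of all UMIs (upper row) and per 100 UMIs of 8 sarcomere genes (lower row), for spots ranked on Myh6+Myl2, on 4 stress genes, and on those stress genes outside the lowest Myh6+Myl2 bin. Bars are exact 95% binomial intervals, mostly smaller than the points. The share rises with Myh6+Myl2 in each section, from 0.43% to 2.26% on day 4 but only from 1.66% to 2.22% on day 14.

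Between the highest and the lowest Myh6+Myl2 bin, 31 of the 33 tested members were higher and 1, Angptl4, was lower (edgeR quasi-likelihood test with the section as block, Benjamini-Hochberg over 4769 genes), where 32.5% of all genes were higher and 35.2% lower. The median log2 change of the members was 1.74, against -0.0538 over all genes. With totals in place of TMM scaling the medians were 1.36 and -0.463, the same 32 members were called, and 26.7% of all called genes were higher in place of 48.0%. Standard errors ran from 0.151 to 0.542. Pdk4 was the tested member without a call, and it was called higher once the skeletal muscle spots of day 7 were left out.

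All 4 genes that bring fatty acids into the cell rose. Fabp3 stood at 1643, 781, 887 and 5152 CPM in the lowest bin on days 1, 4, 7 and 14, and at 6654, 6213, 5786 and 6583 in the highest. Its log2 change was 2.29 (SE 0.432, adjusted p = 0.000546), the largest rise of the members, and its lowest bin on day 14 was close to the highest bins. Lpl went from 1090, 490, 585 and 1912 CPM to 3482, 2865, 2765 and 2477, and Cd36 from 487, 379, 266 and 763 to 1079, 1021, 1014 and 1009. For both genes every highest bin lay above every lowest one. Slc27a1 changed by 1.298 (SE 0.181, adjusted p = 9.9e-05).

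Angptl4, a secreted inhibitor of lipoprotein lipase, went the other way in all 4 sections. It stood at 114, 173, 137 and 46.1 CPM in the lowest bin and at 12.7, 8.43, 9.98 and 5.95 in the highest, with no overlap. The log2 change was -3.21 (SE 0.313, adjusted p = 2.04e-05), so the gene that restrains Lpl was most frequent where Lpl itself was least frequent. Most of the 1582 UMIs of Angptl4 lay in the lowest bins (312, 478, 202 and 96). It therefore passed the minimum of 1000 UMIs only through the bins where it was high. With a minimum of 10 UMIs, which it met in the other bins too, Angptl4 was also called lower. Adipocyte genes, which mark another cell type that expresses Angptl4, took 0.022%, 0.000508%, 0.021% and 0.000144% of UMIs in the lowest bins. In the highest bins they took 0.00165%, 0.00166%, 0.000614% and 0.00221%, which was more than in the lowest on days 4 and 14. Their part in the result was not tested. Without the fat-rich spots, those with at least 10 adipocyte UMIs (12, 4, 7 and 4 in the sections), Angptl4 was again the single member called lower.

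All 5 genes of activation and the carnitine shuttle rose, with a median log2 change of 1.74. Acsl1 went from 154, 77.9, 100 and 441 CPM on days 1, 4, 7 and 14 to 571, 523, 558 and 609, a log2 change of 2.19 (SE 0.365, adjusted p = 0.000264). Cpt1b, the muscle form of the enzyme that commits acyl groups to mitochondrial entry, went from 165, 77.9, 87.1 and 287 to 431, 395, 359 and 352. Crat, which buffers acetyl groups with carnitine, went from 261, 138, 199 and 317 to 609, 481, 495 and 439. Cpt2 (1.74) and the carnitine carrier Slc25a20 (1.29) rose with them. The genes that make and remove malonyl-CoA, the inhibitor of Cpt1b, both rose: Mlycd, the decarboxylase, from 31.4, 29, 41.5 and 75.8 to 104, 100.1, 101 and 112, and Acacb, the mitochondrial acetyl-CoA carboxylase, from 22.7, 8.7, 18.4 and 32.2 to 72.2, 56.4, 68.7 and 40.5.

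All 8 genes of the beta-oxidation spiral rose, by log2 changes between 1.10 and 2.12. Acadm, the medium-chain dehydrogenase, had the largest of them, 2.12 (SE 0.389, adjusted p = 0.000464). It went from 295, 99.3, 156 and 650 CPM in the lowest bins to 811, 908, 705 and 913 in the highest. The very-long-chain dehydrogenase Acadvl changed by 1.73 and went from 505, 131, 244 and 548 to 971, 801, 760 and 773. Hadha and Hadhb, the subunits of the mitochondrial trifunctional protein, are neighbours transcribed away from each other on chromosome 5 (mm10, 30118304 to 30155162 on the minus strand and 30155248 to 30184593 on the plus strand). Their log2 changes, 1.84 (SE 0.287) and 1.87 (SE 0.379), differed by less than either error. Hadhb went from 875, 218, 310 and 1048 to 1594, 1522, 1447 and 1495. Acadl, the long-chain dehydrogenase, went from 568, 193, 214 and 675 to 1011, 954, 890 and 920, and Acaa2, the mitochondrial thiolase, from 490, 112, 234 and 629 to 1171, 839, 831 and 945. For Acadm, Acadvl, Hadhb, Acadl and Acaa2 the day 4 section gave the lowest of the 4 values in the lowest bin, and day 14 the highest. The hydratase Echs1 changed by 1.63 and the 3-hydroxyacyl-CoA dehydrogenase Hadh by 1.10. Hadh stood at 73.8, 50.4, 109.5 and 107.5 CPM in the lowest bins, with day 7 the highest.

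The enzymes that prepare unsaturated fatty acids rose as well: Eci1 from 169, 54.7, 101 and 279 CPM to 436, 395, 377 and 415, Decr1 from 199.9, 68.2, 93.9 and 213 to 369, 311, 272 and 296, and Eci2 from 78.9, 62.4, 60.5 and 96.5 to 144, 120.1, 107 and 127. So did the 3 genes of the electron transfer flavoprotein system. Etfdh, the enzyme that passes the electrons to ubiquinone, went from 108, 59.5, 67.3 and 274 to 395, 380, 321 and 367, a log2 change of 2.13 (SE 0.34, adjusted p = 0.000213). The flavoprotein subunits changed by 1.97 (Etfa) and 1.81 (Etfb). Etfa went from 201, 110.2, 115 and 430 to 572, 645, 485 and 581, and Etfb from 463, 209.5, 274 and 645 to 1211, 909.8, 988 and 892.

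The acyl-CoA thioesterase Acot13 went from 308, 178, 126 and 430 CPM to 550, 483, 523 and 518. Acot2 went from 18.3, 12.3, 17 and 45.6 to 63.3, 70.9, 60.7 and 54.7, a count that is uncertain because its neighbour Acot1 is nearly identical in sequence. Ucp3, the muscle uncoupling protein, was too rare for the main tests, at 63, 54, 28 and 161 UMIs in the sections. Of the triglyceride genes, Dgat2, which makes triglyceride, changed by 2.19 (SE 0.381, adjusted p = 0.000341) and went from 54.1, 28.3, 33.3 and 131 CPM to 163, 292, 146 and 215. Pnpla2, the lipase that opens stored triglyceride, went from 175, 75.8, 106 and 163 to 341, 307, 245 and 218. Hormone-sensitive lipase (Lipe) had 169, 134, 120 and 140 UMIs in the sections and was not tested. Once genes with 10 UMIs or more were admitted, Lipe was higher too (log2 change 0.95, SE 0.249, adjusted p = 0.00409).

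The regulators did not move as 1 group. Ppargc1a, the coactivator of mitochondrial biogenesis, went from 9.87, 8.34, 20.4 and 24.5 CPM to 32, 37.4, 60.3 and 34.7, and Esrra, the nuclear receptor ERRalpha, from 70.5, 59.8, 61.9 and 87.8 to 108, 91.1, 109 and 88.3. Both were higher (log2 changes 1.80 and 0.90). Ppara, the nuclear receptor of fatty acids, was captured in only 8, 16, 7 and 10 UMIs, too few for the main tests. It was not called once genes with 10 UMIs or more were admitted. Pdk4, the kinase that shuts pyruvate dehydrogenase, stood at 48.2, 9.43, 58.5 and 50.9 CPM in the lowest bin and at 33, 139, 50.3 and 68.3 in the highest. Its ratio between the bins was 0.685 on day 1 (95% interval from counting error 0.521 to 0.897), 14.8 on day 4 (9.98 to 22.8), 0.86 on day 7 (0.65 to 1.14) and 1.34 on day 14 (1.07 to 1.69). The sections therefore pointed in both directions, and the fitted change of 0.98 had the largest error of the members (SE 0.542, adjusted p = 0.123). Without the skeletal muscle spots of day 7 Pdk4 was called higher, but without the whole day 7 section it was not called.

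**Figure D2:**
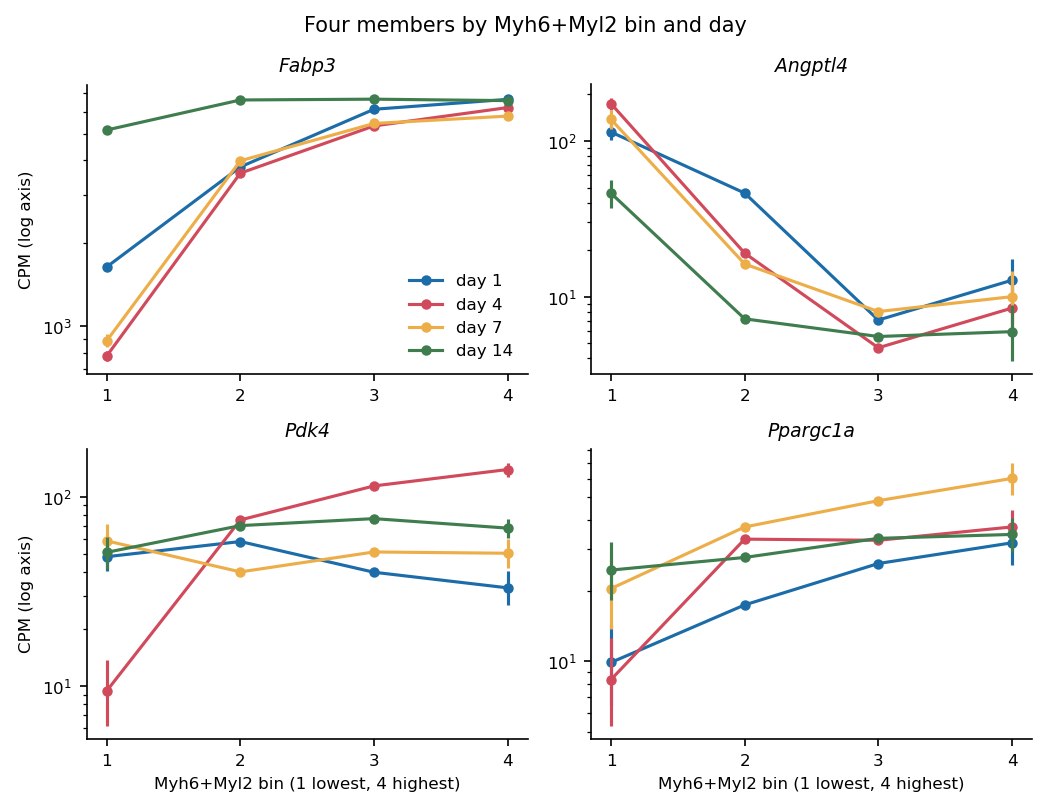
CPM (log axis) of Fabp3, Angptl4, Pdk4 and Ppargc1a in the 4 Myh6+Myl2 bins (1 lowest, 4 highest) of the day 1, 4, 7 and 14 sections, with exact 95% Poisson intervals on the end bins. Fabp3 and Ppargc1a are higher in the highest bin than in the lowest in each section, Angptl4 drops from 46.1 to 173 CPM in the lowest bin to 5.95 to 12.7 in the highest, and Pdk4 climbs steeply on day 4 alone, from 9.43 to 139.

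Per sarcomere UMI, few members were called. Of the 33, Fabp3 was higher (log2 change 0.80, SE 0.277, adjusted p = 0.00997) and Angptl4 lower (-5.00, SE 0.556, adjusted p = 2.04e-07), where 0.671% of all genes were higher and 81.9% lower. The median was 0.218 for the members and -1.72 over all genes. The call on Fabp3 did not survive leaving out the day 1 section (0.55, adjusted p = 0.17) or the day 4 section (0.59, adjusted p = 0.126). The number of members called higher depended on the skeletal muscle spots of day 7: without them 17 were higher, with 2.55% of all genes higher, and Angptl4 and Esrra were lower. Acsl1 was then at 0.94 (SE 0.236, adjusted p = 0.00207), Acadm at 0.94 (SE 0.239, adjusted p = 0.00239) and Fabp3 at 0.90 (SE 0.235, adjusted p = 0.00273). With 10 bins in place of 4, which compares more extreme spots, 12 members were lower, where 93.2% of all genes were, and Fabp3 was still higher; the members' median was then -0.442, against -3.31 over all genes.

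**Figure D3:**
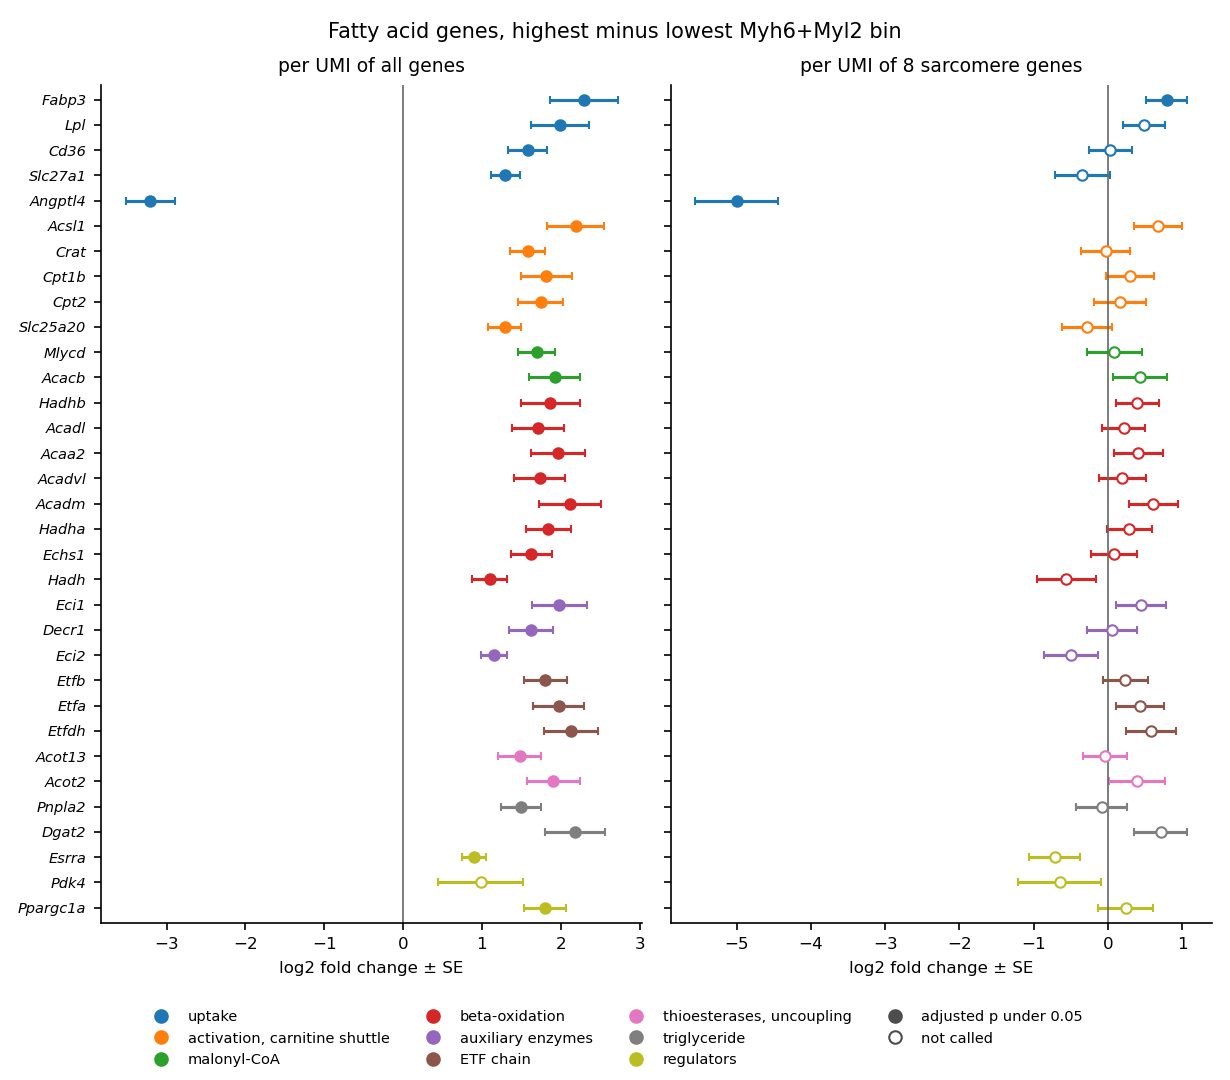
Fitted log2 change of the 33 tested fatty acid genes between the highest and the lowest Myh6+Myl2 bin with its standard error, per UMI of all genes (left) and per UMI of 8 sarcomere genes (right), coloured by role. Filled points had an adjusted p under 0.05. On the left 31 genes lie to the right of 0 and are filled, with Angptl4 at -3.21, and on the right the points gather around 0 with Fabp3 (0.80) and Angptl4 (-5.00) filled.

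Ranked on the stress genes over all spots, the members showed no called change. All 33 were fitted below 0, with a median log2 change of -0.578 against -0.0147 over all genes, and 0 passed the test in edgeR, where 1.09% of genes were higher and 0.294% lower. With totals in place of TMM, 1 member and 0.252% of genes were lower, and 89.1% of all called genes were higher in place of 78.8%. At an unadjusted p under 0.05, 20 members were lower and 0 higher, where 7.02% of all genes were lower and 6.92% higher. DESeq2 called 4 members lower, and 0.944% of all genes. The smallest adjusted p belonged to Slc27a1 (log2 change -0.80, SE 0.188, adjusted p = 0.066). The days ran against each other: the highest stress bin held 0.446 and 0.633 times the members' share of the lowest bin on days 1 and 4, 1.304 times on day 7 (1.11 without the skeletal muscle spots) and 1.00 times on day 14. The lowest stress bin was not the same tissue on each day, since 1.48% of its spots on day 1 lay in the lowest Myh6+Myl2 bin, against 41.0%, 66.5% and 42.5% on days 4, 7 and 14. Per sarcomere UMI the members pointed 1 way, with 22 of 33 lower (median -0.72, against -0.188 over all genes, of which 4.78% were lower and 0.566% higher). The largest falls were those of Acaa2 (-0.99, SE 0.16, adjusted p = 0.0165), Slc27a1 (-0.93, SE 0.167), Acadm (-0.92, SE 0.177), Eci1 (-0.89, SE 0.193) and Cpt2 (-0.88, SE 0.16). Without the day 4 section, or without the day 7 section, 0 of the 22 calls were left. The share of all genes called in those fits is not given. A loss of calls among the members therefore cannot be told from one among all genes.

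The stress ranking was repeated within the spots outside the lowest Myh6+Myl2 bin. This comparison was set aside as an alternative at first and was taken up as a comparison of its own after its result was seen. All 32 members tested among 3675 genes were lower in the highest stress bin than in the lowest, where 24.2% of genes were lower and 23.2% higher. The median log2 change was -0.742, against -4.73e-05 over all genes, and the changes ran from -1.08 to -0.38. Of the 32, 25 were lower in each of the 4 sections. The share of all genes that were so was not counted, so this number stands without a comparison. With totals in place of TMM the members' median was -0.518 and that of all genes 0.227, 29 members and 12.3% of genes were called lower, and 78.4% of the called genes were higher in place of 49.0%. The summed share went from 2.42% to 1.56% on day 1, from 2.12% to 1.20% on day 4, from 2.07% to 1.5% on day 7 (2.08% to 1.66% without the skeletal muscle spots) and from 2.20% to 2.13% on day 14, so the contrast was smallest on day 14. The 4 stress genes took 0.0354%, 0.0522%, 0.132% and 0.0405% of UMIs in the lowest of these bins, and 0.869%, 0.527%, 0.676% and 0.232% in the highest. The highest bin of day 14 thus also held the smallest stress share, and the part of this in the result was not tested.

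The stress-rich spots held other cells too. The fibroblast list took 0.101%, 0.143%, 0.184% and 0.0774% of UMIs in the lowest stress bin and 0.216%, 1.10%, 0.988% and 0.138% in the highest, with 6 of 6 genes higher (median log2 change 2.02). Macrophage genes took 0.0292%, 0.0388%, 0.0484% and 0.0286% against 0.0635%, 0.194%, 0.121% and 0.0379%, with 4 of 4 tested higher. Neutrophil genes took 0.0014%, 0.000587%, 0.00107% and 0.000271% against 0.0109%, 0.001105%, 0.00102% and 0.00202%. Myh6+Myl2 itself went from 2.55%, 2.25%, 2.49% and 2.33% to 1.56%, 1.302%, 1.86% and 2.27%. Their part in the result was not tested. Per sarcomere UMI, 29 of 32 members were lower (median -0.486, against 0.263 over all genes, of which 11.2% were lower and 47.3% higher). Acacb, Cpt1b and Esrra were the members without a call on that scale. The sarcomere genes themselves took 4.084%, 3.535%, 4.124% and 4.138% of UMIs in the lowest stress bin on days 1, 4, 7 and 14. In the highest they took 3.962%, 3.334%, 3.869% and 4.325%. They thus fell less than Myh6+Myl2 on days 1, 4 and 7, and rose on day 14. The fit was not repeated per Myh6+Myl2 UMI, so the part of the chosen reference in these calls was not tested. Member UMIs per 100 sarcomere UMIs went from 59.2 to 39.4 on day 1, from 59.9 to 36.1 on day 4, from 50.2 to 38.8 on day 7 (50.2 to 40.6 without the skeletal muscle spots) and from 53.2 to 49.3 on day 14.

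Of the 5 largest falls, 3 were those of beta-oxidation enzymes, Acaa2, Acadm and Hadha. Acaa2 stood at 1142, 816, 849 and 1004 CPM in the lowest stress bin on days 1, 4, 7 and 14 and at 725, 279, 430 and 784 in the highest. The change was -1.08 on the log2 scale (SE 0.172, adjusted p = 0.000287), and -0.83 per sarcomere UMI (SE 0.128, adjusted p = 0.000256). Acadm went from 777, 848, 718 and 957 to 421, 305, 412 and 827, a change of -1.03 (SE 0.18, adjusted p = 0.00051), and -0.78 per sarcomere UMI. Every stress-rich value of Acaa2 lay below every stress-poor one, while the day 14 value of Acadm in the stress-rich spots exceeded 2 of its stress-poor values. Hadha went from 1063, 703, 766 and 680 to 677, 293, 480 and 578 (-0.91, SE 0.148, adjusted p = 0.000274), and its partner Hadhb from 1470, 1454, 1387 and 1465 to 1078, 708, 913 and 1412 (-0.74, SE 0.137). All 8 genes of the spiral were lower on both scales.

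Of the other roles, Eci1 went from 400, 387, 393 and 392 CPM to 260, 145, 192 and 383, a change of -0.96 (SE 0.195, adjusted p = 0.00158). Cpt2 went from 271, 212, 183 and 209 to 176, 85.4, 111 and 180.2, a change of -0.91 (SE 0.145, adjusted p = 0.000237). Both were also lower per sarcomere UMI, by -0.71 and -0.66. Of the uptake genes, Fabp3 went from 6310, 5547, 5413 and 6341 to 3453, 3276, 4103 and 6866 (-0.68, SE 0.144, adjusted p = 0.00132), with the day 14 section the other way. Lpl went from 3380, 2811, 2714 and 2479 to 2154, 1934, 2354 and 2345 (-0.59, SE 0.104), and Cd36 from 1013, 922, 975 and 1011 to 791, 729, 909 and 995 (-0.43, SE 0.086). Slc27a1 changed by -0.88 (SE 0.139). The 5 genes of activation and the shuttle had a median change of -0.80 and the 3 electron transfer flavoprotein genes one of -0.866. Mlycd (-0.76), Acacb (-0.47), Acot2 (-0.78), Acot13 (-0.43), Pnpla2 (-0.61) and Dgat2 (-0.89) were lower as well. Among the regulators, Ppargc1a changed by -0.67 (SE 0.158), Pdk4 by -0.73 (SE 0.207) and Esrra by -0.38 (SE 0.0851), the smallest change of the 32.

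Within these spots Angptl4 ran opposite to the others, as it did between the Myh6+Myl2 bins. Over all spots the edgeR fit by stress bin had placed Angptl4 below 0 with the other members, without a call (-0.97, SE 0.631, adjusted p = 0.513). It was too rare in these spots for the 1000-UMI minimum, and was tested with genes of 10 UMIs or more. Its counts were 14.9, 6.52, 5.66 and 3.31 CPM in the lowest stress bin and 53.9, 21.3, 17.7 and 9.36 in the highest, ratios of 3.61, 3.27, 3.13 and 2.83. The log2 change was 1.35 (SE 0.332, adjusted p = 0.00797), and 1.73 per sarcomere UMI (SE 0.323, adjusted p = 0.000517). Lipe was lower on the same terms (-0.96, SE 0.205, adjusted p = 0.000327), which made 1 of 36 members higher and 33 lower, where 11.3% of the 14367 genes of that fit were higher and 10.3% lower.

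**Figure D4:**
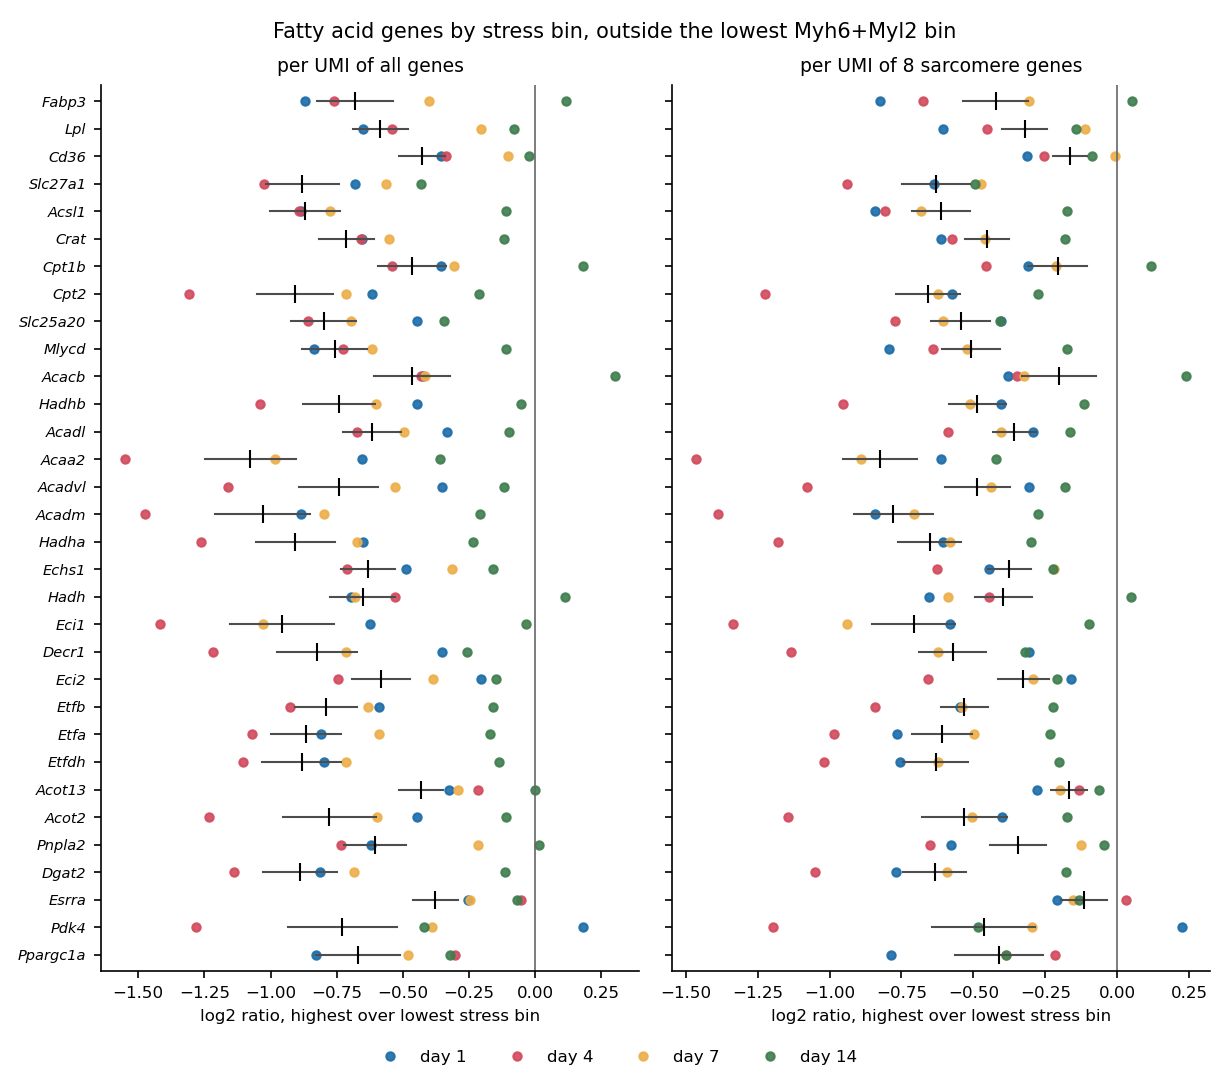
Log2 ratio of the 32 tested fatty acid genes between the highest and the lowest stress bin of the spots outside the lowest Myh6+Myl2 bin, per UMI of all genes (left) and per UMI of 8 sarcomere genes (right). Points are the 4 sections, as ratios of CPM or per sarcomere UMI, and black ticks with bars are the fitted log2 change and its standard error, which on the left includes the TMM scaling. The day 4 points lie furthest left for most genes, down to a 0.342-fold ratio for Acaa2, and the day 14 points lie nearest to 0 for most.

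Neighbouring pathways gave the setting. Between the Myh6+Myl2 bins, 22 of 22 genes of the citrate cycle and pyruvate dehydrogenase were higher (median log2 change 1.53), as were 39 of 39 nuclear-encoded subunits of oxidative phosphorylation (1.45) and 4 of 4 tested ketone body genes, while 11 of 19 glycolysis genes were higher and 3 lower (0.486). Of 79 further fatty acid genes, 47 were tested, 36 were higher and 6 lower (0.886). The largest changes among these were those of Plin5, which coats lipid droplets at mitochondria (2.45, SE 0.425, adjusted p = 0.00033), the mitochondrial acetyl-CoA synthetase Acss1 (2.27, SE 0.378) and Ech1, a dienoyl-CoA isomerase (2.15, SE 0.429). Plin5 went from 26.7, 7.61, 12.2 and 66.2 CPM to 115, 114, 81.4 and 106. Per sarcomere UMI the largest were falls of Fabp5 (-3.56), Plin2 (-3.44) and Cpt1a (-2.65), family members of Fabp3, Plin5 and Cpt1b that many other cell types express.

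Between the stress bins outside the lowest Myh6+Myl2 bin, 22 of 22 citrate cycle genes and 39 of 39 oxidative phosphorylation genes were lower (medians -0.634 and -0.566), so the members' median of -0.742 stood beside falls of similar size in other mitochondrial genes. Of 18 glycolysis genes tested, 9 were lower and 2 higher (-0.199). Of 40 further fatty acid genes tested, 20 were lower and 2 higher (-0.261), led by Ech1 (-1.16, SE 0.208), Acss1 (-0.96, SE 0.118) and Klf15, a transcription factor of muscle lipid metabolism (-0.95, SE 0.176). Per sarcomere UMI, 21 of 22, 34 of 39 and 4 of 18 genes of the first 3 lists were lower and 7 glycolysis genes were higher. Of the further fatty acid genes, 13 were lower and 6 higher on that scale, with Fabp5 (1.06, SE 0.19) and Plin2 (0.85, SE 0.182) among the largest changes.

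In the highest Myh6+Myl2 bin the days were compared with day 1 by ratio alone. On day 4, 2 of 33 members were at least 1.5-fold higher and 1 lower, where 3.17% of genes were higher and 6.77% lower by as much. Pdk4 went from 33 to 139 CPM, 4.22-fold (95% interval from counting error 3.39 to 5.30), and Dgat2 from 163 to 292, 1.79-fold (1.61 to 2.00). Angptl4 was 1.51-fold lower with an interval of 0.915 to 2.50 that includes 1, on 37 and 32 UMIs. On day 7, 2 members were higher, Ppargc1a at 60.3 against 32 CPM (1.88-fold, 1.45 to 2.46) and Pdk4 (1.52-fold, 1.16 to 2.00), and 0 were lower, where 6.33% of genes were higher and 3.80% lower.

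On day 14, 1 member was higher, again Pdk4 (68.3 CPM, 2.07-fold, 1.64 to 2.63), and 4 were lower, where 1.68% of genes were higher and 8.05% lower. Hadha went from 1076 to 664 CPM (1.62-fold lower, 1.54 to 1.71), and Pnpla2 from 341 to 218 (1.57-fold lower, 1.43 to 1.72). Acacb went from 72.2 to 40.5 (1.79-fold lower, 1.45 to 2.20) and Angptl4 from 12.7 to 5.95 (2.14-fold lower, 1.25 to 3.71). The members' median ratio to day 1 was 0.905, 0.865 and 0.865 on days 4, 7 and 14, against 0.913, 1.03 and 0.905 over all genes. With 1 mouse a day, these differences between days cannot be told apart from differences between mice or sections.

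**Figure D5:**
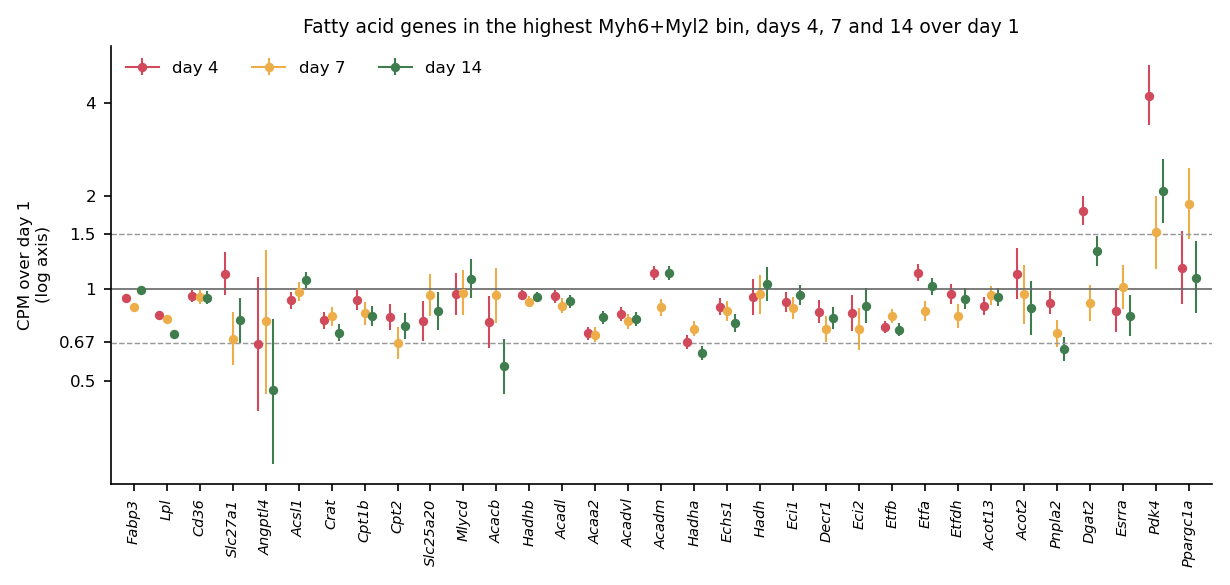
CPM of the 33 tested fatty acid genes in the highest Myh6+Myl2 bin on days 4, 7 and 14 as a ratio to day 1 (log axis), with 95% intervals that cover counting error only and dashed lines at 1.5-fold. Most genes lie between the dashed lines on all 3 days, with Pdk4 highest at 4.22 on day 4 and Angptl4 lowest at 0.467 on day 14.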

How the data were processed

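The authors aligned the reads of the 4 Visium sections to mm10 and counted them with Space Ranger 1.3.0, per the submitters' processing notes, which also list Seurat 4.1.1. The deposited values are raw UMI counts per gene and spot under tissue, with features named by symbol and Ensembl identifier. The members, the gene lists and the rankings were chosen with earlier results of these data known. Of 11 hemoglobin genes 10 were found, and a spot was dropped where they exceeded 1% of its UMIs. Genes with at least 1000 UMIs over the kept spots were tested (4769 of 32285). The UMIs of each bin of spots were summed into 16 libraries, and the highest was compared with the lowest bin by the edgeR 4.0.16 quasi-likelihood test (robust, TMM scaling, section as block, 9 residual degrees of freedom, R 4.3.3) with Benjamini-Hochberg adjustment over all genes at 0.05. The fit per sarcomere UMI used the summed counts of the 8 sarcomere genes as library size. A standard error is the log2 change divided by the square root of F. Outside the lowest Myh6+Myl2 bin the bins were cut anew. On simulated data made from the Myh6+Myl2 libraries (4769 genes), 183 of 200 genes changed by 1 on the log2 scale were recovered, with 188 called and 5 of these false. Those counts were drawn with 1 dispersion for all genes and with changes that did not differ between sections. The number of false calls therefore does not carry over to the real data.

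Values by section are given for the 3 members of most UMIs in each role, for the 5 largest rises and falls of each test, and for members called against the members' median; of the other fatty acid genes the 3 largest changes are named. Days were not tested. Intervals are 95% (exact Poisson and Clopper-Pearson) and cover counting error only. Alternatives were DESeq2 1.42.0, total-UMI scaling, other gene and spot filters, 3 or 10 bins of spots, a fit without the block, and leaving out each section. Gene positions are those of GENCODE for mm10.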

Additional observations from a re-analysis of the deposited data

Results flagged for a closer look

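Pdk4 was flagged because the sections pointed in opposite directions between the Myh6+Myl2 bins: the highest bin held 0.685 times the value of the lowest on day 1, but 14.8 times on day 4 and 1.34 times on day 14, with counting intervals that leave out 1. Lipe was flagged for the same reason, with a ratio of 2.23 on day 4 and 0.565 on day 7. These sections held 134 and 120 Lipe UMIs in all. Fast muscle genes took 2.03% of UMIs in the lowest bin of day 7. Adipocyte genes took 0.021% of UMIs in the lowest and 0.000614% in the highest bin of day 7. On day 4 they took 0.000508% and 0.00166%. The part of either list in the Lipe ratios was not tested. Outside the lowest Myh6+Myl2 bin, Fabp3 was lower in stress-rich spots on days 1, 4 and 7 (ratios 0.547, 0.591 and 0.758) and higher on day 14 (1.08). Cpt1b showed the same order, with 0.782, 0.687 and 0.809 on days 1, 4 and 7 and 1.13 on day 14. The summed share of the 36 genes over all spots was lower in the highest stress bin on day 1 (ratio 0.446) and day 4 (0.633) and higher on day 7 (1.304, or 1.11 without the skeletal muscle spots). With 1 section a day, none of these differences between days was tested.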

How the results depend on the processing

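Between the Myh6+Myl2 bins, 31 or 32 members were higher and 1 lower under all 16 alternatives. Outside the lowest Myh6+Myl2 bin, 25 to 33 members were lower in the stress-rich spots under 14 alternatives chosen after seeing the data, and 21 to 30 per sarcomere UMI under 13. With genes of 10 UMIs or more, 1 member was higher there on each scale. Leaving out a section gave 29 to 32 lower, and 21 to 30 per sarcomere UMI.

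The other counts moved, and the cause was not tested. Most member counts in this section are given without the share of all genes called. They therefore do not tell a move of the members from a move of all genes. By stress bin over all spots, 4 members were lower in DESeq2, 1 with total UMIs, 1 with genes of 10 UMIs or more, 1 without skeletal muscle spots, 0 to 1 leaving out a section (1 without day 1, Angptl4) and 32 without the lowest Myh6+Myl2 bin. Per sarcomere UMI, the 22 lower became 11 with genes of 10 UMIs or more, 5 without the section block, 0 with only the end bins, 0 with 3 bins, and 0 to 15 leaving out a section (13 without day 1, 0 without day 4, 0 without day 7). By Myh6+Myl2 bin per sarcomere UMI, members higher were 4 in DESeq2, 0 with only the end bins, 4 without mitochondrial genes, 6 without the hemoglobin filter, 4 in spots of at least 1000 UMIs, 3 without fat-rich spots, 17 without skeletal muscle spots, 10 with 3 bins, and 0 to 9 leaving out a section (0 without day 1 or day 4, 9 without day 7, 2 without day 14). Members lower were 2 in DESeq2, 2 without the block, 2 without skeletal muscle spots, 12 with 10 bins, and 1 to 2 leaving out a section.

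Of the day counts, at 2-fold 1 member was higher on day 4 and 0 on day 7, and 0 were lower on day 4 and 1 on day 14. Without mitochondrial genes 0 were lower on day 4, 2 higher on day 14 and 2 lower on day 14. Over all kept spots 2 were lower on day 4, 1 higher on day 7, 2 higher on day 14 and 1 lower on day 14. Without the hemoglobin filter 0 were lower on day 4. Per sarcomere UMI 0 were lower on day 4, and 1 was higher and 2 were lower on day 7. With genes of 10 UMIs or more 2 were lower on day 7 and 3 higher on day 14, and without skeletal muscle spots 1 was lower on day 7. The summed share on days 1, 4, 7 and 14 was 2.59%, 2.26%, 2.19% and 3.21% without mitochondrial genes, and 1.43%, 1.17%, 1.22% and 1.47% without Fabp3. It was 1.89%, 1.58% and 2.09% on days 1, 4 and 14 without the hemoglobin filter. Without skeletal muscle spots, a setting added once the data had been seen, the day 7 ratio of the members' share per sarcomere UMI in the highest to that in the lowest Myh6+Myl2 bin turned from 0.799 to 1.275.

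Each fit was paired within sections, since the bins compared come from the same section and the section was the block. Depth limited Ucp3, Lipe and Ppara throughout, and Angptl4 in the highest Myh6+Myl2 bin, where it had 25 to 37 UMIs a section.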
